A study of Mus musculus with 4 samples.

Results

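Transcripts of the integrated stress response were followed through primary spermatogonial cultures of mice that had been exposed to extracellular vesicles (EVs) from the neonatal testis. The genes were Ddit3, Atf3, Atf4, Atf5, Asns, Chac1, Trib3, Ppp1r15a and Xbp1, which take up 10 of the 32285 gene rows of the count tables. They were chosen on measured values of these same cells: Ddit3 had stood among the leading genes of a cluster in an earlier clustering, and all 9 belong to the response or to its neighbour, the unfolded protein response. The levels that follow are therefore a description and carry no test. The symbol Ddit3 occupied 2 of these rows, of which 1 held no UMI in the kept cells of the 3 libraries counted, so that 9 symbols covered 10 rows.

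Cultures were Thy1-positive cells from the testes of 3 male mouse pups at postnatal day 6, grown on STO cells, a mouse embryonic fibroblast line used as a feeder layer. For 3 days they received PBS (vehicle 1 and vehicle 2) or 1 μg/mL of EVs prepared from whole postnatal day 7 testes (EV 1 and EV 2). Cells were digested to single cells and counted with a droplet assay in which a unique molecular identifier (UMI) stands for 1 captured RNA molecule. Expression was available here for vehicle 1, vehicle 2 and EV 1, while EV 2 entered only with its 6794 barcodes and its expression was not analysed here. With 1 EV library, nothing replicates a contrast of the arms, no p-value is given, and intervals (95%) cover counting error only. The EVs came from whole testes, so that their cells of origin are mixed, and the labels give no genotype.

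After filtering, 8263, 8637 and 4779 cells remained in vehicle 1, vehicle 2 and EV 1, and any pair of libraries shared 11 to 22 barcodes. Germ cells were defined by at least 2 UMIs of Dazl, Tex15, Stk31 and Epcam together and more of these than of Col1a1, Col1a2, Sparc and Dcn, and feeder cells by the reverse. EV 1 stood apart, with 227 germ cells (4.75% of its cells) against 4411 and 4783 in the vehicle libraries, and with 2508 feeder cells (52.5%) against 2357 and 2473. The class sums held 9560631, 10756382 and 6784725 UMIs in feeder cells, and 9445041, 11013433 and 325012 in germ cells. A count of 3 UMIs thus equals 9.23 CPM (counts per 1e6 UMIs of the class and library) in germ cells of EV 1 and at most 0.442 in feeder cells of any library. Fibroblast markers outside the rule (12 of 12 detected) summed to 1998, 2077 and 1940 CPM in feeder cells of vehicle 1, vehicle 2 and EV 1, and to 234, 220 and 357 CPM in germ cells. Single genes of the list moved more than its sum in feeder cells, where its log2 ratios (EV 1 over the mean of both vehicle libraries) had a median of -0.47, against -0.13 over all genes, and 7 of 11 genes with at least 200 UMIs lay below both vehicle libraries. Thbs1 was at least 2-fold higher in EV 1 (12.7, 11.8 and 41.0 CPM, log2 ratio 1.74), Pdgfrb at least 2-fold lower (14.6, 13.1 and 5.31 CPM, -1.37), and Loxl1 was at -0.81. The 8 germ cell markers outside the rule summed to 897, 914 and 655 CPM in germ cells and to 29.3, 24.7 and 10.0 CPM in feeder cells. In germ cells of EV 1, 3 of them lay above both vehicle libraries and 5 below. Zbtb16 and Gfra1 were at least 2-fold lower there (log2 ratios of -1.84 and -1.07). Of the germ cell genes of the rule itself, Dazl (12.3, 9.30 and 0.737 CPM) and Tex15 (12.3, 11.2 and 0.737 CPM) were at least 2-fold lower in feeder cells of EV 1. The rule itself bounds their level in feeder cells. STO cells and fibroblasts of the testis itself cannot be told apart with these markers. The 6 macrophage markers summed to 15.0, 11 and 23.1 CPM in feeder cells, with Cd68 at least 2-fold higher in EV 1 (log2 ratio 1.48), and to 6.78, 7.35 and 18.5 CPM in germ cells, where Adgre1 and C1qa were at 0. The 6 Sertoli markers summed to 336, 349 and 319 CPM in feeder cells and to 35.4, 31.1 and 67.7 CPM in germ cells (Amh at 0), where Sox9 was 2-fold higher in EV 1 (22.6, 20.4 and 43.1 CPM, log2 ratio 1.05, on 14 UMIs in EV 1). In feeder cells Sox9 was at -0.07 and Clu at -0.35. These shifts in markers move with the EV 1 contrast, and their part in the results was not tested. The Leydig, peritubular myoid (Des at -0.53 in feeder cells) and endothelial lists stayed at or under 36.9 CPM in both classes, with Hsd3b1 at 0 in both and Cyp17a1 and Insl3 at 0 in germ cells.

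The integrated stress response slows general translation when a kinase phosphorylates the initiation factor eIF2, as happens under amino acid shortage, unfolded proteins in the endoplasmic reticulum, viral RNA or haem deficit. The mRNAs of a few transcription factors, ATF4 first among them, are then translated better, and their targets rise. A pathway of this kind is set in large part at the level of protein and of Xbp1 splicing, neither of which a count of UMIs per gene can show. Atf4, Atf5 and Ddit3 (CHOP) encode its transcription factors, Atf3 an inducible repressor and activator of the same family, and Xbp1 the factor of the neighbouring unfolded protein response. Asns encodes asparagine synthetase, Chac1 a glutathione-degrading enzyme and Trib3 a pseudokinase that restrains ATF4 and CHOP. Ppp1r15a (GADD34) encodes the phosphatase subunit that brings eIF2 back to its active form.

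By the GENCODE vM21 annotation of GRCm38, Ddit3 lies at chr10:127290774-127296288 on the plus strand, overlapped on the other strand by Mars and Gm4189. The row of the same symbol that held no UMI lies within it on the same strand, at chr10:127290829-127293753. Atf4 lies at chr15:80255184-80257541, Xbp1 at chr11:5520659-5525893 and Chac1 at chr2:119351229-119354381, each on the plus strand. On the minus strand lie Atf3 at chr1:191170296-191218039, Atf5 at chr7:44812256-44816658, Asns at chr6:7675169-7693254, Trib3 at chr2:152337422-152344032 and Ppp1r15a at chr7:45522916-45526268. Atf5 overlaps Nup62 and Il4i1, Ppp1r15a overlaps Tulp2 and Atf3 overlaps Gm24748, all on the opposite strand. Whether the counting used strand is not given in the sources used here, so reads of these 4 members and of their partners may not have been told apart.

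All 9 members had a promoter in RefSeq (GRCm38.p6), 10 in all because Atf5 had 2. The window ran from 250 bases before to 50 after the start site. On both strands, 4 sets of letters were searched. TGATGNAA, the core of the C/EBP-ATF response element through which ATF4 acts, occurred in Atf3, Asns, Chac1 and Trib3 (4 of 9 members), against 3.97% of 32851 promoters. TGACGTCA, the cAMP response element that proteins of the ATF and CREB families bind, occurred only in Ppp1r15a among the members and in 1.79% of all promoters. TGANTCA, the AP-1 element of FOS and JUN, occurred only in Ddit3 among the members and in 7.81% of all promoters. The ER stress response element of XBP1 and ATF6 (CCAAT and CCACG at 9 bases from each other) was in none of the 9 and in 0.119% of all promoters. A match is a description of letters and shows no binding. The 250 bases before the start are printed for the 2 members that most separated the cell classes in opposite directions (Ddit3 and Ppp1r15a) and for 2 with the ATF4 letters (Asns and Chac1), 5′ to 3′, with the matched letters in capitals. They span chr10:127290543-127290792 (plus strand), chr7:45526269-45526518 (minus strand), chr6:7693210-7693459 (minus strand) and chr2:119350992-119351241 (plus strand).
Ddit3: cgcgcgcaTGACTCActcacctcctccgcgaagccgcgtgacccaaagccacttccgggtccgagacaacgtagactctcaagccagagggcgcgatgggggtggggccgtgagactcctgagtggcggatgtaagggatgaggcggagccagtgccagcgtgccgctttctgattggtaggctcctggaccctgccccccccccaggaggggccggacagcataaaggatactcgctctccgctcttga
Ppp1r15a: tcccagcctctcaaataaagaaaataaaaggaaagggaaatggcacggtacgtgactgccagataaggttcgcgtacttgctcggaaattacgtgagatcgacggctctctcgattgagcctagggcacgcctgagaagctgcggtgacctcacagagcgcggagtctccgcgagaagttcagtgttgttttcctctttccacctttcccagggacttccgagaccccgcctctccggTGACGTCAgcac
Asns: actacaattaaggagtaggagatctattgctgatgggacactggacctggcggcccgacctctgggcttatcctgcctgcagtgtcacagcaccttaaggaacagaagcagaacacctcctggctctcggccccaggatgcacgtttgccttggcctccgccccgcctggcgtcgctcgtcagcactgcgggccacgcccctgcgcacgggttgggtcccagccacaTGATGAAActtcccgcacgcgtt
Chac1: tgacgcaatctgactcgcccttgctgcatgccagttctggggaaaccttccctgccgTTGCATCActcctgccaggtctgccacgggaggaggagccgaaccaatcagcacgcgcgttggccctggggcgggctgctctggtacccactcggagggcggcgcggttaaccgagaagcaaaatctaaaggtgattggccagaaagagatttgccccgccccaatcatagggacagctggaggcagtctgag
In Asns the letters lay at -23 to -16 and in Chac1, as TTGCATCA on the other strand, at -193 to -186. The match of Atf3 was at -110 to -103, and that of Trib3 lay past the start, at 15 to 22.

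In feeder cells, no member differed between EV 1 and the vehicle mean by 2-fold. Atf5 was lower in EV 1 by 0.79 on the log2 scale and Ppp1r15a by 0.39, Trib3 was higher by 0.59 and Ddit3 by 0.19. A gene counted as at least 2-fold higher or lower only when EV 1 also lay beyond both vehicle libraries, further on the log2 scale from the nearer one than these were from each other, and when the class held at least 200 UMIs of it. By this rule 0 of the 7 members with enough UMIs were higher and 0 lower, against 1.41% higher and 2.82% lower of 9705 genes. At 1.5-fold, 0 members were higher and 1 (Atf5) was lower, against 4.47% and 10.4% of all genes. Without any fold, 2 members (Ddit3 and Atf3) lay above both vehicle libraries by this measure and 5 (Atf4, Atf5, Asns, Ppp1r15a and Xbp1) lay below them (Asns only on the log2 scale, not in CPM), where 20.9% of all genes lay above and 47.4% below. The median log2 ratio over all 9 members was -0.07, that over the 7 with at least 200 UMIs was -0.17, and that over the 9705 genes was -0.13. With library sizes set by edgeR's TMM factors or DESeq2's size factors in place of total UMIs, the median over all genes shifted by 0.07 and 0.09.

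**Figure D1:**
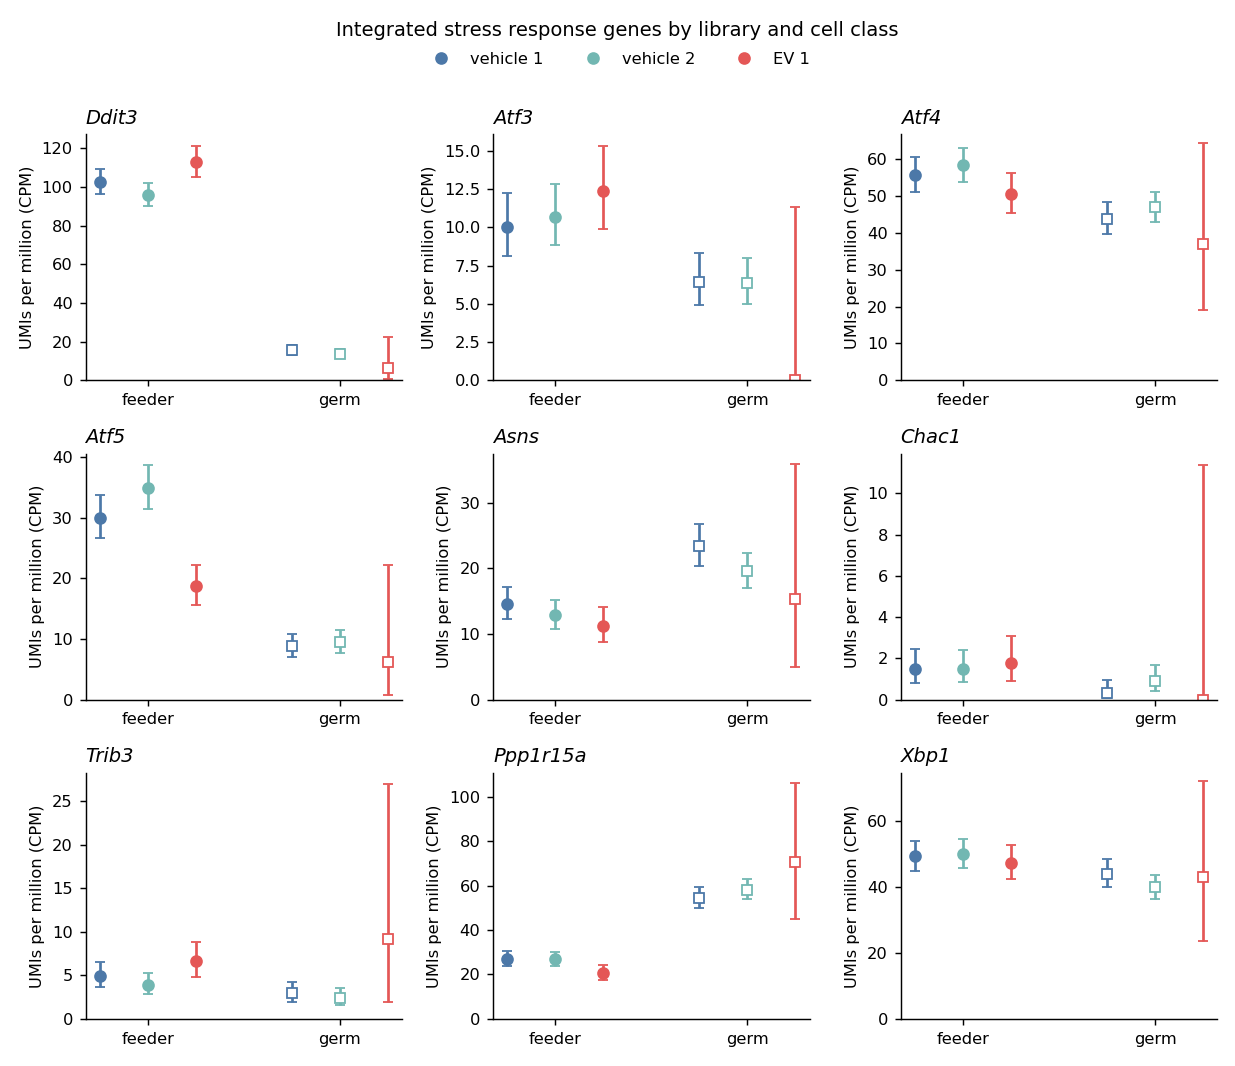
CPM ( vertical axes from 0, a scale per gene) of the 9 members in feeder cells (filled circles) and germ cells (open squares) of vehicle 1, vehicle 2 and EV 1; bars are exact 95% Poisson intervals. Ddit3 and Atf5 sit higher in feeder cells and Ppp1r15a and Asns higher in germ cells, and the germ cell values of EV 1 carry wide intervals.

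Ddit3, the factor CHOP, was at 102 CPM in vehicle 1, 96.0 CPM in vehicle 2 and 113 CPM in EV 1 in feeder cells (979, 1033 and 766 UMIs). The vehicle mean was 99.2 ± 4.50 CPM (SD, n = 2), and EV 1 was 1.14 times the pooled vehicle libraries (1.05 to 1.24). EV 1 was thus the highest of the 3, at a size well under 2-fold. The interval assumes Poisson counts, while Ddit3 varied more than that between feeder cells, as given below. Ddit3 was also picked on values of these same cells, so the interval is no test. Median depth was lower in EV 1 (2448 UMIs per feeder cell against 3635 and 3896), so the comparison was repeated among cells with 1500 to 3000 UMIs. There Ddit3 was at 85.9, 103 and 123 CPM in vehicle 1, vehicle 2 and EV 1, or 1.30 times the pooled vehicle level (1.10 to 1.53). Over all alternatives its log2 ratio ranged from 0.14 to 0.37.

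Atf5, a paralogue of ATF4 that is also made when eIF2 is phosphorylated, had the largest difference of the members with enough UMIs. Its levels were 30.0 CPM in vehicle 1, 35.0 CPM in vehicle 2 and 18.7 CPM in EV 1 (287, 376 and 127 UMIs), with a vehicle mean of 32.5 ± 3.49 CPM (SD, n = 2). EV 1 was at 0.574 of the pooled vehicle level (0.471 to 0.695), below both vehicle libraries. Among cells of 1500 to 3000 UMIs the ratio was 0.530 (0.368 to 0.753), and over all alternatives the log2 ratio lay between -1.0 and -0.65.

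Atf4, the central factor of the response, was at 55.7, 58.4 and 50.6 CPM in vehicle 1, vehicle 2 and EV 1. EV 1 was at 0.885 of the pooled vehicle level (0.782 to 0.999), the lowest of the 3 by a small margin. Atf3 was at 10.0, 10.7 and 12.4 CPM, with a ratio of 1.19 whose interval (0.914 to 1.54) held 1. Both factors thus stayed near their vehicle level. Xbp1 was at 49.4, 50.1 and 47.5 CPM, with a ratio of 0.954 (0.839 to 1.08).

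Among the effectors, Ppp1r15a was at 27.1 CPM in vehicle 1, 27 CPM in vehicle 2 and 20.6 CPM in EV 1 (259, 290 and 140 UMIs). The vehicle libraries lay close together (27 ± 0.092 CPM, SD, n = 2) and EV 1 was at 0.764 of them (0.630 to 0.921). At matched depth the difference was not settled. Among cells of 1500 to 3000 UMIs the levels were 21.8, 22.8 and 19.4 CPM and the interval of the ratio (0.590 to 1.28) held 1, and with each cell thinned to 1000 UMIs the log2 ratio was 0.18 in 1 random draw, while in another the share of feeder cells with Ppp1r15a was 2.33%, 2.36% and 1.85%, lowest in EV 1. Whether the difference depends on depth is thus not shown. Asns was at 14.5, 12.8 and 11.2 CPM, with a ratio of 0.822 (0.629 to 1.06). The 2 scarcest members stayed under 200 UMIs in all. Trib3 was at 4.92, 3.9 and 6.63 CPM (47, 42 and 45 UMIs), or 1.51 times the pooled vehicle level (1.03 to 2.19). Chac1 held 14, 16 and 12 UMIs (1.46, 1.49 and 1.77 CPM), and its interval (0.559 to 2.41) allowed a change in either direction.

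**Figure D2:**
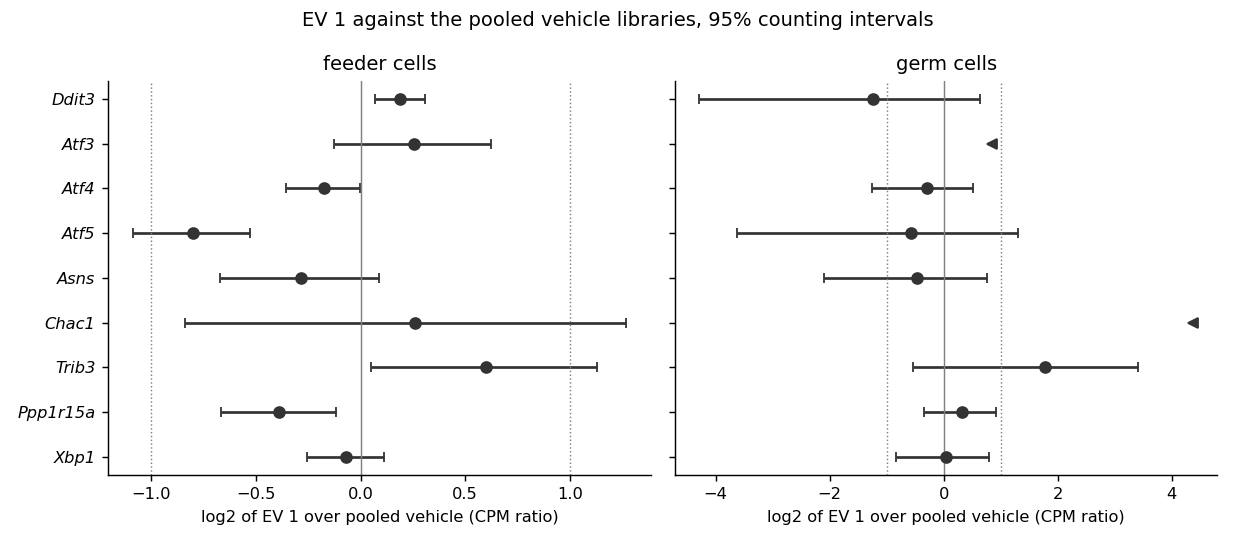
Log2 of the CPM ratio of EV 1 to the pooled vehicle libraries (horizontal axes, a scale per panel) for each member in feeder cells (left) and germ cells (right); points are ratios, bars exact 95% intervals, triangles the upper limit where EV 1 held no UMI, and dotted lines mark 2-fold. In feeder cells the intervals of Ddit3 and Trib3 lie above 0 and those of Atf4, Atf5 and Ppp1r15a below it, while in germ cells every interval includes 0.

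In germ cells, the 325012 UMIs of EV 1 set the limit. By the log2 ratio with 0.5 UMI added, no member was 2-fold higher or lower among the 5 with at least 200 UMIs, against 4.15% and 4.49% of 9674 genes, and no interval of a ratio excluded 1. Ppp1r15a had the most UMIs in EV 1 (23), at 54.6, 58.2 and 70.8 CPM in vehicle 1, vehicle 2 and EV 1, with a ratio of 1.25 (0.790 to 1.89). Xbp1 was at 44.2, 40.0 and 43.1 CPM (14 UMIs in EV 1), and Atf4 at 43.8, 46.9 and 36.9 CPM (12 UMIs in EV 1). These levels were within counting error of each other. Ddit3 was at 15.5 and 13.6 CPM in the vehicle libraries and at 6.15 CPM in EV 1, where this was 2 UMIs, with a ratio of 0.425 (0.051 to 1.55). Its log2 ratio with 0.5 UMI added was -0.92, so that only this addition kept it within 2-fold. Asns was at 23.4, 19.5 and 15.4 CPM (5 UMIs in EV 1), with a ratio of 0.722 (0.233 to 1.70). Trib3 was at 2.97 and 2.45 CPM and, from 3 UMIs, at 9.23 CPM in EV 1, with a ratio of 3.43 (0.687 to 10.6). Atf5 held 2 UMIs in EV 1 (6.15 CPM against 8.79 and 9.44), a ratio of 0.673 (0.081 to 2.47). Atf3 (6.46 and 6.36 CPM in the vehicle libraries) and Chac1 (0.318 and 0.908 CPM) had no UMI in EV 1. The limit of 3 counts is 9.23 CPM and the Poisson interval reaches 11.4 CPM, above both vehicle levels, so no fold is given. Differences of the size measured in feeder cells were not detectable at this depth.

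The members differed more between the cell classes than between the arms, as did genes in general. The median absolute log2 ratio between the classes was 0.69 over the 7 members with enough UMIs and 1.10 over all genes, and between the arms in feeder cells it was 0.26 and 0.25. Within each vehicle library, Ddit3 and Atf5 were at least 2-fold higher in feeder cells and Ppp1r15a at least 2-fold higher in germ cells. Of the 7 members with at least 200 UMIs in a class, 2 were at least 2-fold higher in feeder cells in both vehicle libraries, against 20.6% of 11362 genes, and 1 was at least 2-fold higher in germ cells, against 30% of genes. These shares are near those of all genes. The median log2 ratio of feeder over germ cells was 0.69 over the 9 members, 0.33 over the 7 with enough UMIs and -0.30 over the 11362 genes with enough UMIs. Median depth was higher in feeder than in germ cells of each library, and the median over the 9 members was 0.30 among cells of 1500 to 3000 UMIs and 0.29 with each cell thinned to 1000 UMIs.

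Ddit3 in feeder cells was 6.62 times its germ cell level in vehicle 1 (5.56 to 7.94), 7.05 times in vehicle 2 (5.94 to 8.43) and 18.3 times in EV 1 (5.06 to 152, on 2 germ cell UMIs). Atf5 was 3.42 times higher in feeder cells of vehicle 1 (2.67 to 4.42), 3.70 times in vehicle 2 (2.97 to 4.65) and 3.04 times in EV 1 (0.825 to 25.4). The order was the same in the 3 libraries for both genes, and in EV 1 the interval of Atf5 held 1. Atf3 was higher in feeder cells by 1.55 times in vehicle 1 (1.12 to 2.18) and 1.68 times in vehicle 2 (1.24 to 2.30). Atf4 had ratios of 1.27, 1.24 and 1.37, and Xbp1 of 1.12, 1.25 and 1.10, in vehicle 1, vehicle 2 and EV 1. For Atf4 the vehicle intervals excluded 1, and for Xbp1 only that of vehicle 2 did (1.10 to 1.43).

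The opposite order held for the phosphatase subunit and for asparagine synthetase. Ppp1r15a in germ cells was 2.02 times its feeder cell level in vehicle 1 (1.73 to 2.35), 2.16 times in vehicle 2 (1.88 to 2.49) and 3.43 times in EV 1 (2.11 to 5.36). Asns in germ cells was 1.61 times its feeder cell level in vehicle 1 (1.30 to 2.00), 1.52 times in vehicle 2 (1.22 to 1.90) and 1.37 times in EV 1 (0.434 to 3.35). Among the members, the class preference therefore pointed both ways. Trib3 was higher in feeder cells of vehicle 1 (1.66 times, 1.02 to 2.75), and its interval held 1 in vehicle 2 and in EV 1. Chac1 was higher in feeder cells of vehicle 1 (4.61 times, 1.29 to 25.0) on 3 germ cell UMIs, and not measurably so in vehicle 2 (1.64 times, 0.699 to 4.04).

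**Figure D3:**
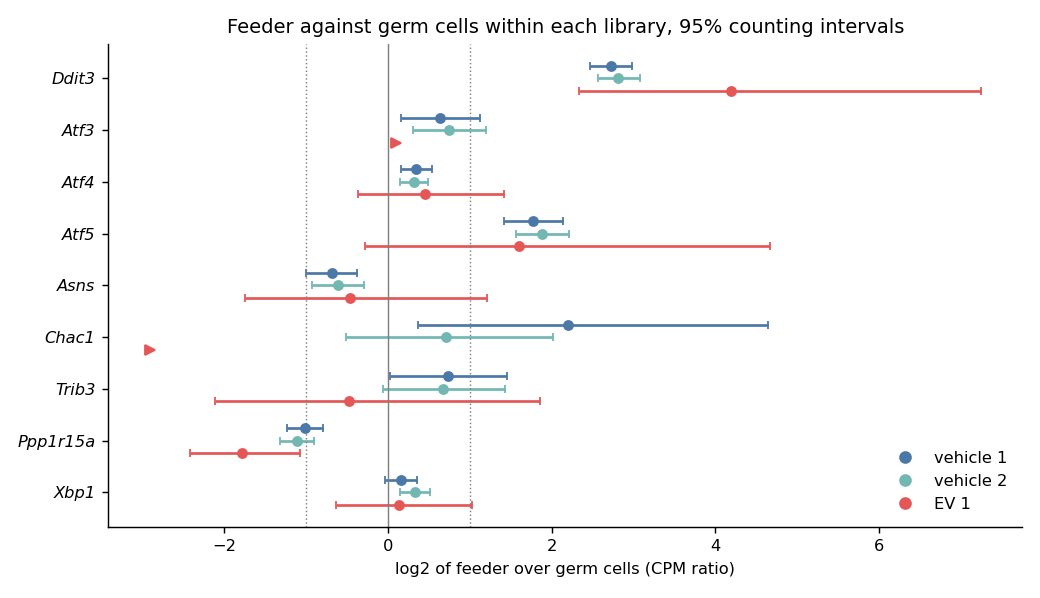
Log2 of the CPM ratio of feeder to germ cells (horizontal axis) for each member within vehicle 1, vehicle 2 and EV 1; bars are exact 95% intervals, triangles the lower limit where germ cells held no UMI, and dotted lines mark 2-fold. Ddit3 and Atf5 lie beyond 2-fold to the right in the vehicle libraries and Ppp1r15a at or beyond 2-fold to the left.

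Free RNA in droplets was not measured, and the share of fibroblast markers in germ cells stands in for it here. Fibroblast markers outside the rule stood in germ cells at 11.7%, 10.6% and 18.4% of their feeder cell level in vehicle 1, vehicle 2 and EV 1. Ddit3 stood at 15.1% and 14.2% of its feeder cell level in the vehicle libraries. Taken at the marker shares, free RNA would amount to 12 of its 15.5 CPM in vehicle 1 and 10.2 of its 13.6 CPM in vehicle 2. In EV 1 the same share would give 20.8 CPM, where 6.15 CPM was measured on 2 UMIs, with a Poisson interval (0.745 to 22.2 CPM) that holds this value. What part of the germ cell level of Ddit3 is free RNA was not tested. Atf5 kept 5.27 and 5.74 CPM, Atf3 5.28 and 5.22 CPM and Ppp1r15a 51.5 and 55.3 CPM in the vehicle libraries.

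Per cell, each member was sparse. With every cell thinned to 1000 UMIs, Ddit3 was seen in 8.59% of feeder cells of vehicle 1 (7.50% to 9.81%, Wilson), 7.82% of vehicle 2 (6.81% to 8.96%) and 10.4% of EV 1 (9.20% to 11.7%). In germ cells, which serve as the background here, the shares were 1.45%, 1.22% and 0.562%. This left out 86, 56 and 184 feeder cells and 146, 112 and 49 germ cells below 1000 UMIs. Without thinning the feeder cell shares were 24.3%, 24.5% and 20.7%, with EV 1 lowest, beside its lower median depth. Median depth in germ cells was 1936, 2091 and 1322 UMIs. Counts of Ddit3 per thinned feeder cell had a variance of 1.38, 1.38 and 1.31 times their mean in the 3 libraries, so its UMIs were gathered in fewer cells than a uniform level would give. A single feeder cell held up to 16, 19 and 9 UMIs of Ddit3 before thinning. For Atf4 the variance was 1.03, 1.01 and 1.01 times the mean, and for Xbp1 1.06, 1.01 and 1.02 times.

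Other members were also counted in feeder cells with and without Ddit3, at the same thinned depth. Atf4 was seen in 9.74% of feeder cells with Ddit3 and 4.87% of those without in vehicle 1, in 6.35% and 5.07% in vehicle 2, and in 8.71% and 4.66% in EV 1. Atf5 was seen in 3.59% and 2.22%, in 6.35% and 3.28%, and in 3.73% and 1.44% in the same order. Both factors were more frequent beside Ddit3 in each library, although the Wilson intervals overlapped for Atf4 in vehicle 2 and for Atf5 in every library. Xbp1 was not more frequent, at 3.59% and 4.82%, 4.23% and 4.62%, and 3.73% and 4.75%. For Atf3 and Trib3 the share was higher beside Ddit3 in each library on at most 5 cells, and for Asns, Chac1 and Ppp1r15a the order differed between libraries. Feeder cells in which 3 or more of the 9 members were seen made up 0.308%, 0.455% and 0.473% of vehicle 1, vehicle 2 and EV 1, and those with none made up 77.4%, 76.7% and 76.9%. Cells of 1 library share its preparation and are not replicates.

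The wider pathway was read from 7 lists of genes around the members. For the eIF2 kinases and their control, 0 of 10 genes with at least 200 UMIs in feeder cells were 2-fold higher or lower, with a median log2 ratio of -0.27. The 3 largest differences were those of the kinase genes Eif2ak2 (PKR, -0.48), Eif2ak1 (HRI, -0.45) and Eif2ak3 (PERK, -0.40), all lower in EV 1. The fourth kinase gene, Eif2ak4 (GCN2), was higher, at 36.3, 35.5 and 43.2 CPM (0.27), or 1.20 times the pooled vehicle level (1.05 to 1.38). For eIF2 and its exchange factor eIF2B, 0 of 8 genes were 2-fold apart. Eif2s2, the beta subunit of eIF2, was at 355, 351 and 503 CPM (log2 ratio 0.51), and Eif2b1 and Eif2b4 were at -0.47 and -0.42.

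Of the targets that ATF4 is known to drive, 1 of 10 genes for amino acid synthesis and one-carbon metabolism was 2-fold higher. This was Aldh1l2, a mitochondrial folate enzyme, at 17.5, 17.8 and 35.4 CPM (log2 ratio 1.01). Phgdh, which opens serine synthesis, was at 48.7, 46.5 and 25.8 CPM (-0.88), and Pck2, the mitochondrial PEP carboxykinase, at -0.84. Members of this list thus lay on both sides of the vehicle level. Amino acid transporters held 0 of 5 at 2-fold, with Slc1a5 at -0.74, Slc7a1 at 0.53 and Slc38a2 at -0.34. Of the tRNA synthetases and their exporter 0 of 13 were 2-fold apart, and the 3 largest differences were those of Mars (-0.57), Sars (0.38) and Gars (0.30).

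Among 14 other targets of ATF4 and CHOP, 2 were at least 2-fold higher and 0 lower. Ero1l, the oxidase that forms disulfide bonds in the endoplasmic reticulum, was at 1044, 1155 and 2459 CPM (log2 ratio 1.16), and Hmox1, haem oxygenase, at 111, 125 and 325 CPM (1.47). Both are also known targets of other stress factors (HIF1 for Ero1l, NRF2 for Hmox1). Bcl2l11 (BIM), a pro-apoptotic target of CHOP, came next by size, at -0.56. The median of the list was -0.16, near the -0.13 of all genes. Endoplasmic reticulum chaperones and quality control genes held 0 of 22 at 2-fold, with a median of -0.12. The largest differences there were lower values of Syvn1 (-0.62), Dnajb11 (-0.61) and Calr (-0.50).

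Lists outside the pathway were read beside it. The metallothioneins Mt1 and Mt2, which bind metal ions, were at log2 ratios of 1.80 and 1.92. The small heat shock gene Cryab was at 60.8, 73.1 and 298 CPM (2.15), the only 1 of 4 heat shock genes at least 2-fold apart, with Hsp90aa1 at 0.38 and Hsph1 at -0.26. Of 8 immediate early genes of cell handling, 1 was higher (Ier3, 1.52) and 3 were lower (Fos, -3.21; Fosb, -2.47; Egr1, -1.13). Immediate early genes are known to respond to dissociation, and metallothioneins to metals and oxidants. The part of these differences in the levels of the members was not tested.

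**Figure D4:**
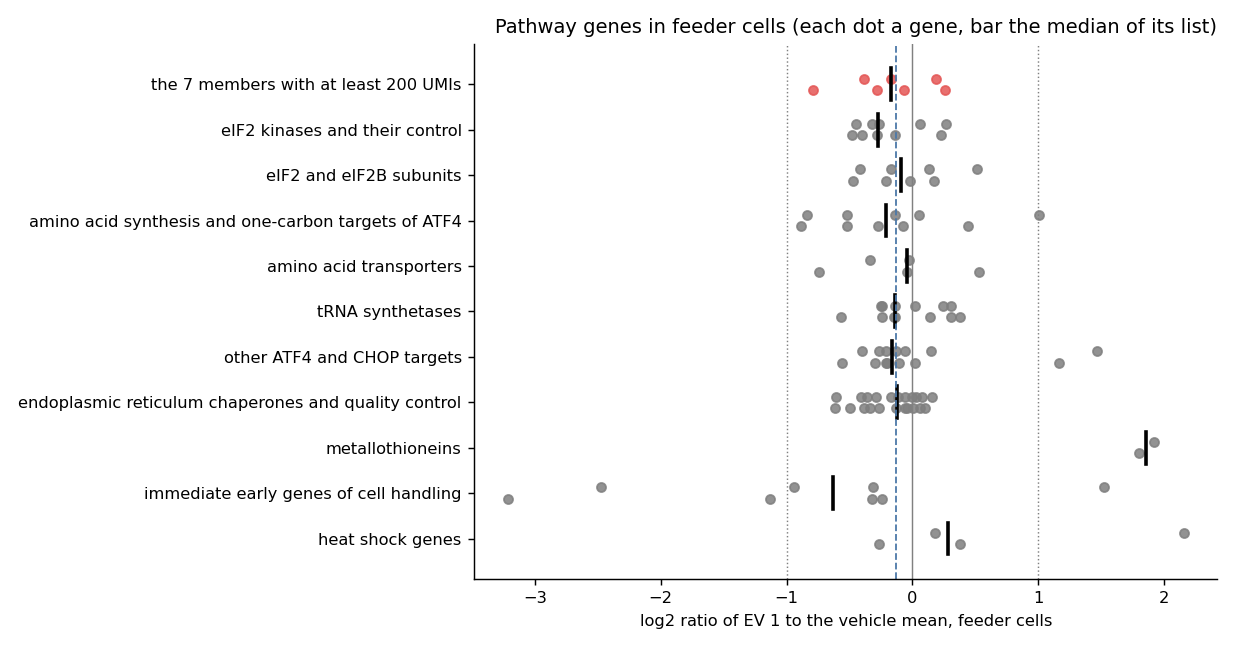
Log2 ratios of EV 1 over the mean of the vehicle libraries in feeder cells (horizontal axis) for genes with at least 200 UMIs, by list (rows); each dot is a gene, the bar is the median of its list, the dashed line the median of all 9705 genes (-0.13) and dotted lines 2-fold. The 7 members (top row) lie between -0.79 and 0.26, while the metallothioneins lie at 1.80 and 1.92.

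In germ cells the same lists held 1 of 8 eIF2 and eIF2B genes lower by at least 2-fold (Eif2s3x, on 2 UMIs in EV 1). Of 8 amino acid and one-carbon genes, 2 were lower (Phgdh at 158, 153 and 64.6 CPM, and Shmt2 on 1 UMI) and 1 higher (Got1 at 30.5, 28.7 and 64.6 CPM). Of 11 other targets, 2 were higher and 1 was lower. These were Ero1l at 142, 137 and 511 CPM, Ddit4 at 78.8, 84.6 and 234 CPM, and Sesn2 on 1 UMI. At the marker shares given for free RNA, feeder cells alone would bring 122, 122 and 452 CPM of Ero1l, at most 3.39 CPM of Ddit4 and at most 4.58 CPM of Got1. What part of any of these germ cell levels is free RNA was not tested. The kinases, transporters, synthetases and chaperones (10, 6, 13 and 23 genes) held none at 2-fold. Mt1 (2.05), Mt2 (1.76), Jun (1.11), Junb (1.17) and Cryab (2.24) were higher. For Cryab in EV 1 the marker share would bring 54.8 of 67.7 CPM, for Jun 71.1 of 89.2 CPM and for Junb 18.8 of 123 CPM. For Mt1 it would bring 1660 of 2686 CPM in EV 1, and 310 of 709 and 268 of 593 CPM in the vehicle libraries, and for Mt2 276 of 662 CPM in EV 1.

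Since metallothioneins were higher in feeder cells of EV 1, feeder cells of the 3 libraries were split together into 5 equal groups by their share of Mt1 and Mt2 UMIs. EV 1 had 43.4% of its feeder cells in the highest group, against 8.27% and 7.48% of the vehicle libraries. Ddit3 did not rise steadily from group to group. In vehicle 1 it ranged from 93.0 to 112 CPM, in vehicle 2 from 81.5 to 125 CPM, and in EV 1 from 75.2 CPM in the lowest group (26 UMIs) to 126 CPM in group 4. In the highest group, EV 1 (106 CPM) lay between vehicle 1 (105 CPM) and vehicle 2 (125 CPM). EV 1 was the highest of the 3 in groups 2 to 4, with 119, 123 and 126 CPM. Atf5 was lowest in EV 1 in all 5 groups, at 14.6 to 27.9 CPM against 18.3 to 36.6 CPM in the vehicle libraries.

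**Figure D5:**
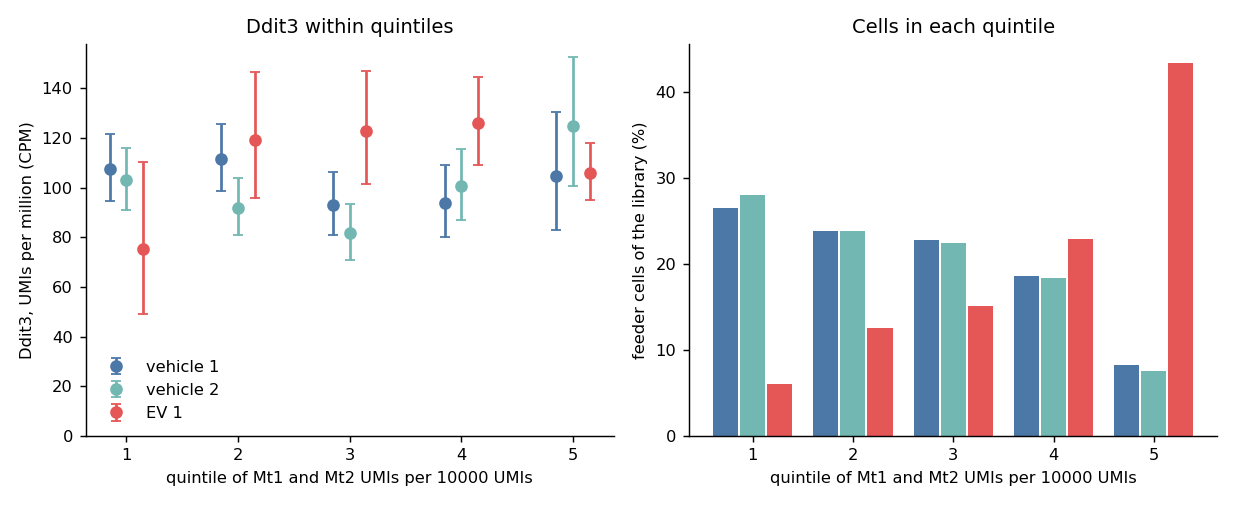
Left, Ddit3 in CPM (axis from 0, bars exact 95% Poisson intervals) in feeder cells of each library within 5 equal groups of cells by Mt1 and Mt2 UMIs per 10000 UMIs of the cell; right, percent of a library's feeder cells in each group. EV 1 has 43.4% of its cells in the highest group, where its Ddit3 level (106 CPM) lies between those of the vehicle libraries.

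The genes whose pattern over the 6 class and library sums was most like that of Ddit3 were Trappc6a, Orai2, Pon2, Gm14325 and Bvht. Likeness was the Euclidean distance between centred log2 CPM values, which was 0.161 to 0.444 for these 5 against a median of 4.07 over 9704 genes. Trappc6a was at 226, 232 and 236 CPM in feeder cells and at 33.0, 29.9 and 15.4 CPM in germ cells. The other 4 had no UMI in germ cells of EV 1, so that their distance there rests on the 0.5 UMI added to every sum. None of the other 8 members was among the 5.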

How the data were processed

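The 4 droplet libraries had been counted by the authors with Cell Ranger 7.0.1 (submitters' processing notes) against mm10, and the deposited values are raw UMI counts per gene and barcode, without normalization. The titles gave each sample its group and replicate number. The study calls the samples of an arm independent. Barcodes passed with 400 to 4000 genes (both ends left out) and less than 10% of UMIs from mitochondrial genes. Doublets were then taken as the top Scrublet scores (scanpy 1.11.5), 0.8% for each 1000 cells, or 633, 697 and 198 cells. UMIs were summed by library and class and scaled to CPM. Log2 ratios set EV 1 against the log2 of the mean CPM of the vehicle libraries, with 0.5 UMI added to each sum. Intervals are exact Poisson, exact conditional (ratios) or Wilson (shares), from scipy 1.17.1 in Python 3.11.15. A test across samples needs replicates in each arm, and expression of only 1 EV library was analysed here. The step was run on simulated Poisson counts with no spread between libraries. Recovery of the largest folds put in was required in feeder cells only. Size factors came from edgeR 4.0.16 and DESeq2 1.42.0, as alternatives only. The members, the lists and the settings were chosen with earlier results of these data known. Genes named are the 9 members, the 3 of each other list with the largest absolute log2 ratio in feeder cells, any at least 2-fold in a class, and the 5 nearest to Ddit3.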

Additional observations from a re-analysis of the deposited data

Results flagged for a closer look

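For 2 members with UMIs in germ cells of EV 1, the value of EV 1 lay on opposite sides of both vehicle libraries in the cell classes. The log2 ratio of Ddit3 in feeder cells minus that in germ cells was 1.11, on 2 germ cell UMIs in EV 1, and that of Ppp1r15a was -0.74, on 23 germ cell UMIs. Atf3 was also higher in feeder cells of EV 1 and at 0 UMIs in its germ cells, where the limit of a count of 0 lies above the vehicle levels. These differences between the classes were not tested.

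Cells outside the comparisons also held members above the vehicle level. Their make-up differed between the arms. In cells that met neither class rule, germ cell markers outside the rule summed to 391 and 382 CPM in the vehicle libraries and 42.7 CPM in EV 1, and fibroblast markers to 1032, 1072 and 1759 CPM. In barcodes with 10% or more mitochondrial UMIs these sums were 367, 599 and 46.9 CPM for germ cell markers and 1912, 1783 and 2617 CPM for fibroblast markers. The part of these shifts in the values that follow was not tested. In the former cells, Trib3 was at 9.98 CPM in EV 1 (29 UMIs) against 5.25 and 4.92 CPM in the vehicle libraries, or 1.96 times their pooled level (1.10 to 3.55). Chac1 was there at 4.13 CPM (12 UMIs) against 2.19 and 2.69 CPM, with an interval of the ratio (0.685 to 4.24) that held 1. In the barcodes with high mitochondrial shares, Ddit3 was at 87.0 CPM in EV 1 (13 UMIs) against 33.6 and 26.8 CPM, or 2.85 times the pooled vehicle level (1.32 to 5.92).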

How the results depend on the processing

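The median log2 ratio of the 9 members in feeder cells was -0.07 and stayed near 0 under every alternative. It was 0.000931 with edgeR's TMM factors, 0.025 with DESeq2's size factors, -0.089 without a cell filter, -0.039 under 5% mitochondrial UMIs, -0.026 with at least 4 marker UMIs, -0.035 with no marker UMI of the other class, 0.065 for cells of 1500 to 3000 UMIs, 0.18 with cells thinned to 1000 UMIs and -0.050 after free RNA was subtracted. In germ cells it was -0.24, and -0.39, -0.38, -0.15, -0.097, 0.080, -0.13, 0.11, 0.050 and -0.39 under the same alternatives in that order, 0.044 as a mean over cells, -0.13 without doublet removal and 0.0026 with 1 UMI added. Put at 3 counts, the 2 members without UMIs in EV 1 gave 0.084, so this median has no stable sign. The feeder over germ median (0.69) stayed above 0, at 1.02, 1.11, 0.59, 0.72, 0.62, 0.60, 0.30, 0.29 and 0.95 under the same 9 alternatives, 0.64 as a mean over cells and 0.60 without doublet removal. Leaving out each vehicle library in turn gave -0.08 to -0.06 in feeder cells, -0.21 to -0.19 in germ cells and 0.63 to 0.66 for feeder over germ cells. No member was 2-fold higher under any alternative, except Trib3 in germ cells (1 member, 3 UMIs in EV 1) with a minimum of 50 UMIs or none. The count of members 2-fold lower, followed after the data were seen, was 0 in both classes and became 1 in these cases. In feeder cells it was Atf5, as a mean over cells (-1.0) and at 1.5-fold. In germ cells it was Ddit3 with TMM, with DESeq2's size factors, with no marker UMI of the other class, after free RNA was subtracted and at 1.5-fold, Atf4 with at least 4 marker UMIs, and Atf3 with a minimum of 50 UMIs or none. Ddit3 held 2 UMIs in germ cells of EV 1. The amount subtracted there (20.8 CPM) exceeded its 6.15 CPM, so its level was set to 0 by the subtraction. Atf3 held 0 UMIs in germ cells of EV 1, so its count as lower gives no fold. The causes of these shifts were not tested. Over 14 alternatives, the log2 ratios of Ddit3, Atf3, Atf4, Atf5, Asns, Chac1 and Trib3 in feeder cells kept their sign. That of Ppp1r15a did so in 13 and that of Xbp1 in 11. Scaling by TMM or DESeq2 shifted the median of all genes in germ cells by -0.15 and -0.13. No paired analysis was made because counts of only 1 EV replicate were analysed here. The depth of germ cells in EV 1 limits every comparison there.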

Other observations

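Cells that met neither class rule made up 18.1%, 16.0% and 42.8% of the kept cells of vehicle 1, vehicle 2 and EV 1, with median depths of 1349, 1407 and 1177 UMIs, and they showed the members at levels closer to feeder than to germ cells for Ddit3. In EV 1 these cells held fewer germ cell markers (42.7 CPM against 391 and 382 CPM) and more fibroblast markers (1759 CPM against 1032 and 1072 CPM), and the part of this in the values was not tested. Ddit3 was at 97.6, 126 and 148 CPM there, and the vehicle libraries themselves were 28.7 CPM apart. Atf5 was at 42.9, 50.1 and 23.4 CPM, 0.504 of the pooled vehicle level (0.377 to 0.665), the same direction as in feeder cells. Asns was at 21.0, 22.4 and 14.5 CPM (0.666, 0.453 to 0.966), Atf4 at 59.1, 63.1 and 58.5 CPM, and Ppp1r15a at 38.9, 36.3 and 33.0 CPM.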
